A study of Mus musculus with 4 samples.

Results

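The genes described here are 33 genes of cholesterol metabolism, followed from the proteins that control the pathway, through its enzymes, to the receptors, carriers and exporters that move sterol. They were taken by name after the Ensembl identifiers of the deposited files had been matched to mouse symbols in GENCODE M21, and all 33 were found among the 25261 identifiers. All 33 also passed the filter on low values. RNA was measured by sequencing in adult neural stem cells of C57BL/6 mice aged 8 weeks. The ctrl group (2 libraries) was infected with a lentivirus that carried a scrambled short hairpin RNA, and the shOGT group (2 libraries) with a lentivirus that carried a short hairpin RNA against mouse Ogt, which encodes O-GlcNAc transferase. All libraries thus came from infected cells, and there was no uninfected group. Separate cultures or animals are not named for the libraries of a group, so the p-values cover the spread among these samples alone, and part or all of it may be technical.

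Cells make cholesterol from acetyl-CoA through mevalonate, isoprenoid units, squalene and lanosterol. When membranes of the endoplasmic reticulum are low in sterol, SCAP carries the transcription factor SREBP2 (gene Srebf2) to the Golgi, where it is cut and freed to switch on genes of synthesis and uptake; INSIG proteins hold SCAP back when sterol is plentiful. Oxysterols in turn activate the liver X receptors (LXR), which switch on the exporters ABCA1 and ABCG1. Lipoproteins of the blood do not pass into the brain, which therefore makes its own cholesterol, and glial cells are main sites of that synthesis.

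In shOGT, transcripts of the synthesis enzymes were lower along nearly the whole pathway, while the transcript of the exporter Abca1 was higher. Of the 19 synthesis enzymes, 12 fell, 0 rose and 7 did not pass the test, and both shOGT values lay below both ctrl values for 17 of them. That order of values was found for 24.3% of all tested genes, and for 32.1% of those with a mean signal of at least 100. Of the other 14 members, 5 fell and 1, Abca1, rose. Over all 33 members, 17 fell and 1 rose, against a background of 2.9% of all 21829 tested genes called lower and 1.96% called higher (4.86% in either direction). Among the 11080 tested genes with a mean signal of at least 100, the range in which 31 members lay, 5.6% were called lower and 3.62% higher. A call means a Benjamini-Hochberg adjusted p under 0.05 in limma, taken over all tested genes on log2(signal + 1). The median log2 fold change was -0.26 for the synthesis enzymes and -0.24 for all members, beside 0.001 for all tested genes. In bulk RNA of this kind, fewer cells of a type and less RNA per cell cannot be told apart.

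**Figure D1:**
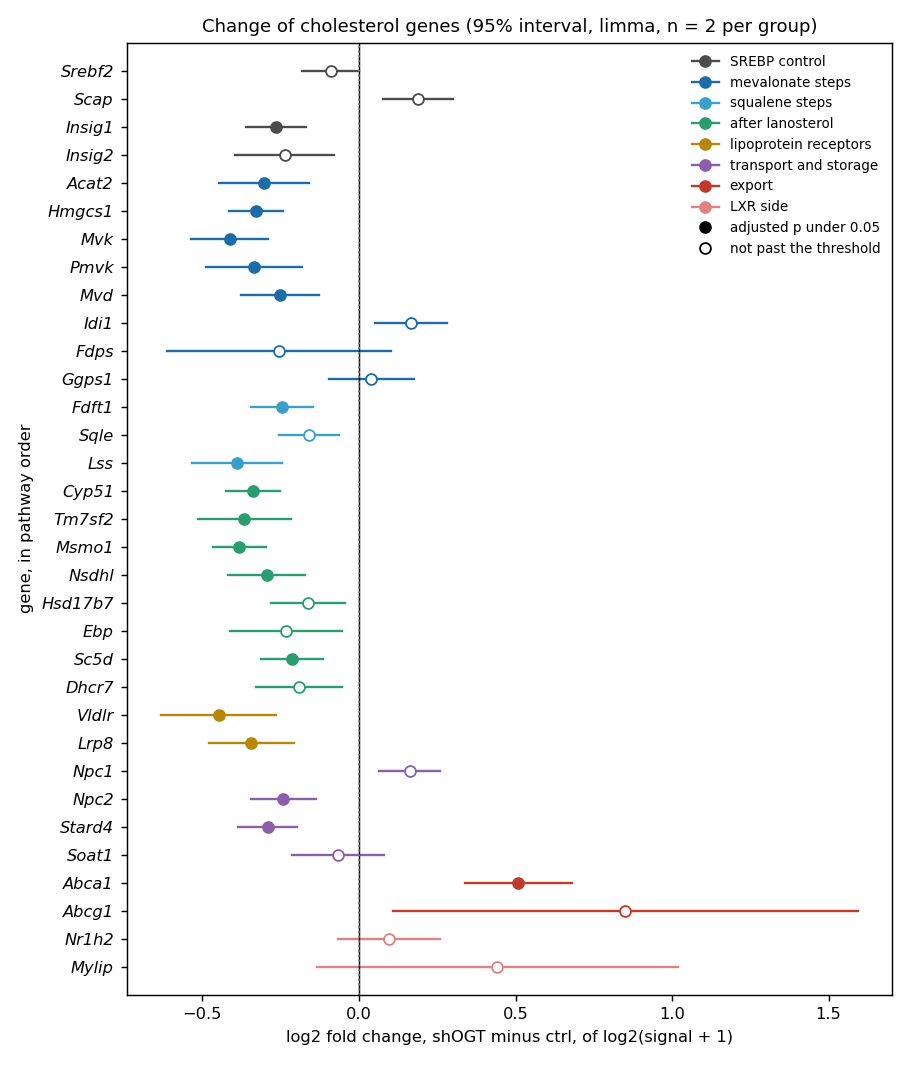
Log2 fold change of each of the 33 genes (shOGT minus ctrl, of log2(signal + 1); n = 2 libraries per group), in pathway order from top to bottom and coloured by role. Bars are 95% intervals from limma, filled points passed an adjusted p under 0.05, and the dotted line, almost on 0, is the median of all tested genes. Most synthesis enzymes lie to the left of 0, and Abca1, at 0.51, is the filled point to the right.

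The calls depended on the setting. With no filter on low values, with quantile normalization and with limma without its variance trend, 0 of the 33 members passed. At an unadjusted p under 0.05 in limma, 21, 21 and 17 members were lower and 5, 5 and 2 higher. Of all tested genes, 4302 of 25261, 3998 of 21829 and 2763 of 21829 had such a p, in either direction. Without shOGT 1, and likewise without shOGT 2, none of the calls held, and a single library was left in the shOGT group. The median log2 fold change of the members was then -0.27 and -0.21. With genes limited to a signal of at least 10 in 2 libraries, 19 members were called lower and 4 higher, against a background of 7.32% and 5.31%. At that minimum, 22 and 18 members were called lower without shOGT 1 and shOGT 2, and 8 and 6 without ctrl 1 and ctrl 2; these 4 fits were added after the data had been seen. Of the 33 log2 fold changes, 25 were negative with all libraries and without ctrl 1, ctrl 2 or shOGT 1. Without shOGT 2, 24 were negative, and Soat1 turned to 0.0039. Leaving out 1 library cannot turn the sign of a gene whose groups do not overlap. It could do so only for the 3 members with overlap (Ggps1, Soat1 and Nr1h2), so these counts do not test the direction.

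Promoters are shown for members that fell (Hmgcs1, Mvk, Cyp51 and Msmo1), for an enzyme that was not lower (Idi1) and for the exporter that rose (Abca1), because SREBP2 is known to act on such promoters together with the factor NF-Y, which binds the CCAAT box. Each sequence is the 250 bases before the transcription start in the RefSeq table for GRCm38.p6, printed 5′ to 3′ on the gene's own strand, and capitals mark CCAAT or TCACNCCAC (a form of the sterol regulatory element) on either strand. The windows are chr13:119690101-119690350 (plus strand), chr5:114444019-114444268 (plus), chr5:4104698-4104947 (minus), chr8:64733579-64733828 (minus), chr13:8885356-8885605 (plus) and chr4:53159896-53160145 (minus).
Hmgcs1: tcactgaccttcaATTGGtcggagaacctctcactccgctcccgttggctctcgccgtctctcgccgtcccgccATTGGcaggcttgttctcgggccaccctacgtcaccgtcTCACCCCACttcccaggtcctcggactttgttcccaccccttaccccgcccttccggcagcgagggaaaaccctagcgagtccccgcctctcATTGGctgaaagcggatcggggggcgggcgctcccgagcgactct
Mvk: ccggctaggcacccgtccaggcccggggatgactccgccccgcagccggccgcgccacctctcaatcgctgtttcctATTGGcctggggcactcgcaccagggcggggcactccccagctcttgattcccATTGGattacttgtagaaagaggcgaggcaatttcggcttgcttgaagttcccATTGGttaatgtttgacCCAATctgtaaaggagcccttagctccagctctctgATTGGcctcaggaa
Cyp51: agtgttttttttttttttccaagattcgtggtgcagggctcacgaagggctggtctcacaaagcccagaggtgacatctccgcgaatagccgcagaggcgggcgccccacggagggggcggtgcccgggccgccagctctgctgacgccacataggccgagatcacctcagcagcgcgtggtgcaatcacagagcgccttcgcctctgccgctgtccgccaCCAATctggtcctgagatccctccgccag
Msmo1: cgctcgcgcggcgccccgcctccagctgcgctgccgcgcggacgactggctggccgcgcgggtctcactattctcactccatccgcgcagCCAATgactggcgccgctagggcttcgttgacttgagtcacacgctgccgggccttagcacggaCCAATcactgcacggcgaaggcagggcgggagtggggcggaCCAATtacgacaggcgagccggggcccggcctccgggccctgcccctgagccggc
Idi1: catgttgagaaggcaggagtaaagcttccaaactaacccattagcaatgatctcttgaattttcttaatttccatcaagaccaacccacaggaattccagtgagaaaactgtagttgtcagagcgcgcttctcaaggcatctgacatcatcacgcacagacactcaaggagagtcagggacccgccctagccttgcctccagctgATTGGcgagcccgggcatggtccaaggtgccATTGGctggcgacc
Abca1: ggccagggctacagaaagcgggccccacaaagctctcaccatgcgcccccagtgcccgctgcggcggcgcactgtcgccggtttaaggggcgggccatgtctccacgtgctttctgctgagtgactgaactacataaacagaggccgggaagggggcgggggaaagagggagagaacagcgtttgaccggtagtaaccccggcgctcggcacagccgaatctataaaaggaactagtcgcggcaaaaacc

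Of the 33 members, 27 had an entry in this promoter table, some with several starts. A CCAAT box on either strand was found in at least 1 window of 15 of the 16 synthesis genes with an entry, or 15 of their 19 windows (78.9%), and in 33.8% of all 32851 windows of the table. Of the other 11 members with an entry, 7 held it. Acat2, which fell, was the synthesis gene without it, and Idi1 and Ggps1, which did not fall, held it. Several boxes in a window were found in genes that fell (5 in Mvk, 3 each in Hmgcs1 and Msmo1) and in genes that were not called (3 each in Ggps1, Hsd17b7, Insig2 and Mylip). TCACNCCAC was found in Hmgcs1, 137 to 129 bases before the start, and in no other member's window, beside 1.05% of all windows. The CCAAT letters do not overlap those of TCACNCCAC in Hmgcs1. The motifs were chosen with the changes of these genes known, and a match is only a match of letters.

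Of the genes that control the pathway, Srebf2 and Scap did not pass the test. Srebf2 itself measured 7701 and 8057 in ctrl against 7602 and 7204 in shOGT. Both shOGT values were the lower ones, but by little: the log2 fold change was -0.09 ± 0.04 (SE; adjusted p = 0.265). Scap, the escort of SREBP2, measured 1837 and 1939 in ctrl against 2202 and 2106 in shOGT. It lay above ctrl in both shOGT libraries and missed the threshold (0.19 ± 0.05, adjusted p = 0.063), which it passed once libraries were rescaled to equal totals (adjusted p = 0.0402).

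Of the 2 genes of retention proteins, Insig1, itself a known SREBP target, fell and Insig2 did not pass. Insig1 measured 6311 and 6605 in ctrl against 5540 and 5208 in shOGT, without overlap, and fell by 16.8% (log2 fold change -0.27 ± 0.04, adjusted p = 0.0104). Insig2 stood at 562 and 583 in ctrl against 497 and 475 in shOGT and missed the threshold (-0.24 ± 0.07, adjusted p = 0.0956).

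**Figure D2:**
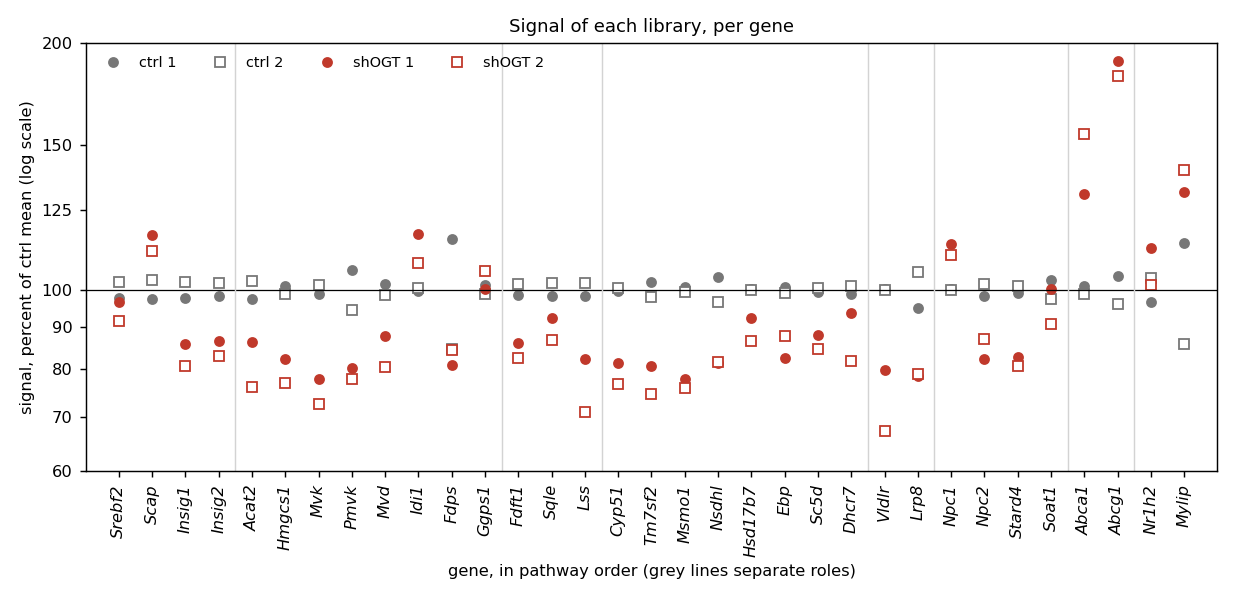
Signal of each of the 4 libraries for each of the 33 genes, as a percentage of that gene's ctrl mean on a log scale; filled circles are replicate 1 and open squares replicate 2, grey for ctrl and red for shOGT. The red points lie below the grey ones for 24 genes and above them for 6, and the groups overlap for 3 (Ggps1, Soat1 and Nr1h2). Among all tested genes, 24.3% had both shOGT values below both ctrl values and 25% above them.

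In the steps from acetyl-CoA to isoprenoid units, 5 of 8 genes fell and 0 rose. Hmgcs1 encodes HMG-CoA synthase, which joins acetyl-CoA to acetoacetyl-CoA; its gene lies on chromosome 13 (119690379 to 119708260, plus strand, GRCm38). It measured 19274 and 18845 in ctrl against 15692 and 14642 in shOGT. The shOGT values were both well under the ctrl range, and the mean fell by 20.4% (log2 fold change -0.33 ± 0.04, adjusted p = 0.00262). The step before it, acetoacetyl-CoA formation by Acat2, measured 1952 and 2051 in ctrl against 1729 and 1523 in shOGT (-0.30 ± 0.06, adjusted p = 0.0299).

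The kinases and the decarboxylase that turn mevalonate into isopentenyl diphosphate were 3 successive genes that passed the test with all libraries, of which Pmvk and Mvd did not without ctrl 1. Mvk, mevalonate kinase, had the most negative log2 fold change of the synthesis enzymes. It measured 1593 and 1636 in ctrl against 1257 and 1169 in shOGT, a fall of 24.9% (-0.41 ± 0.05, adjusted p = 0.00441). Pmvk, phosphomevalonate kinase, measured 1072 and 958 in ctrl against 815 and 790 in shOGT (-0.34 ± 0.07, adjusted p = 0.0248); without ctrl 1 the log2 fold change of Pmvk was -0.26 (adjusted p = 0.0832). Mvd, the decarboxylase that follows, measured 1919 and 1857 in ctrl against 1655 and 1517 in shOGT (-0.25 ± 0.06, adjusted p = 0.0336); without ctrl 1 the log2 fold change of Mvd was -0.23 (adjusted p = 0.0525). None of these genes overlapped between the groups.

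The next enzymes, which rearrange and join the isoprenoid units, did not pass the test. Idi1, isopentenyl diphosphate isomerase, was the synthesis gene with both shOGT values above both ctrl values: 1802 and 1820 in ctrl against 2115 and 1953 in shOGT. Its log2 fold change was 0.17 ± 0.05, and it did not pass in the reported fit (adjusted p = 0.111). Idi1 was called higher at a minimum of 10 (adjusted p = 0.0448) and with the replicate number as a block (adjusted p = 0.0247). The difference itself is bounded by its 95% interval of 0.05 to 0.28, which does not reach the negative values of its neighbours Mvd and Pmvk. Ggps1, which makes geranylgeranyl diphosphate for protein prenylation rather than sterol, measured 833 and 812 in ctrl against 824 and 866 in shOGT, and the groups overlapped (0.04 ± 0.06, 95% interval -0.10 to 0.17).

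Fdps, farnesyl diphosphate synthase, was read at a low level and with a wide spread, at 189 and 139 in ctrl against 133 and 139 in shOGT. The ctrl values differed more from each other than the group means did, the higher shOGT value was under the lower ctrl value by less than 1 unit, the 95% interval was -0.61 to 0.10, and without ctrl 1 the log2 fold change was -0.03. Exons of Fdps share 1124 bases (26.7% of its exon length) with the same-strand gene Gm43738, which has no row in the files, so that its level is uncertain. Exons of 9 further members overlap other genes, among them Tm7sf2 with Vps51 on the same strand (12.1%), Fdft1 with Ctsb (18.3%) and Hmgcs1 with the antisense gene Gm48342 (12.1%), and whether counting used strand is not given in the sources used here.

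The squalene steps, which commit the pathway to sterols, had 3 genes, of which 2 fell. Fdft1, squalene synthase, measured 3120 and 3213 in ctrl against 2728 and 2611 in shOGT and fell by 15.7% (-0.25 ± 0.04, adjusted p = 0.0147). Sqle, squalene epoxidase and a known control point of the pathway, measured 5371 and 5567 in ctrl against 5053 and 4750 in shOGT. Its groups did not overlap, but the difference was smaller and missed the threshold (-0.16 ± 0.04, adjusted p = 0.0689; 0.0218 at a minimum of 10). Lss, which closes the ring to lanosterol, measured 3830 and 3969 in ctrl against 3209 and 2761 in shOGT, with the shOGT libraries further apart than those of ctrl (-0.39 ± 0.06, adjusted p = 0.0112).

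After lanosterol, all 8 genes had both shOGT values below both ctrl values, and 5 of them fell. Among tested genes with a mean of at least 100, 32.1% had that order of values. Cyp51, lanosterol demethylase, on chromosome 5 (4081145 to 4104746, minus strand), measured 8535 and 8610 in ctrl against 6979 and 6584 in shOGT, a fall of 20.9% (-0.34 ± 0.04, adjusted p = 0.00241). Msmo1, the methylsterol oxidase of the next steps, on chromosome 8 (64718139 to 64733792, minus strand), measured 4999 and 4928 in ctrl against 3856 and 3762 in shOGT. The replicates of Msmo1 lay close together in each group, and it had the smallest adjusted p of the members (-0.38 ± 0.04, adjusted p = 0.00145).

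Tm7sf2, a sterol reductase, measured 908 and 870 in ctrl against 717 and 663 in shOGT (-0.37 ± 0.07, adjusted p = 0.0151). Nsdhl, the decarboxylating dehydrogenase that works with Msmo1, measured 1497 and 1397 in ctrl against 1176 and 1181 in shOGT (-0.29 ± 0.05, adjusted p = 0.0174). Sc5d, lathosterol oxidase, measured 2543 and 2573 in ctrl against 2249 and 2163 in shOGT (-0.21 ± 0.04, adjusted p = 0.0269). These 3 fell, each without overlap between the groups. Without ctrl 1 the log2 fold change of Nsdhl was -0.24 (adjusted p = 0.0549), and without ctrl 2 the log2 fold change of Sc5d was -0.21 (adjusted p = 0.0638), so that both calls were lost.

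The other 3 late enzymes were lower in both shOGT libraries without passing the test. Hsd17b7, the ketosteroid reductase that completes demethylation, measured 1557 and 1550 in ctrl against 1434 and 1344 in shOGT (-0.16 ± 0.05, adjusted p = 0.124). Ebp, the sterol isomerase, measured 436 and 429 in ctrl against 356 and 379 in shOGT (-0.23 ± 0.08, adjusted p = 0.138). Dhcr7, which makes cholesterol from 7-dehydrocholesterol, measured 3031 and 3099 in ctrl against 2872 and 2505 in shOGT (-0.19 ± 0.06, adjusted p = 0.118). It was called lower in limma at a minimum of 10 (adjusted p = 0.0302) and with the replicate number as a block (adjusted p = 0.00183). Dhcr7 was the member of this group that depended most on a single library, with a log2 fold change of -0.09 without shOGT 2 and -0.29 without shOGT 1.

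Summed over the 19 synthesis enzymes, the signal was 64460 and 64324 in ctrl against 54848 and 51303 in shOGT, so that the ctrl libraries differed from each other far less than from either shOGT library. Within the pair of shOGT libraries, shOGT 2 was the lower one for 15 of the 19 enzymes and for 25 of the 33 members, beside 50.1% of all tested genes. Ogt itself was the other way round, at 3379 in shOGT 1 and 3516 in shOGT 2, against 4112 and 4137 in ctrl (-0.26 ± 0.04, adjusted p = 0.00876).

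**Figure D3:**
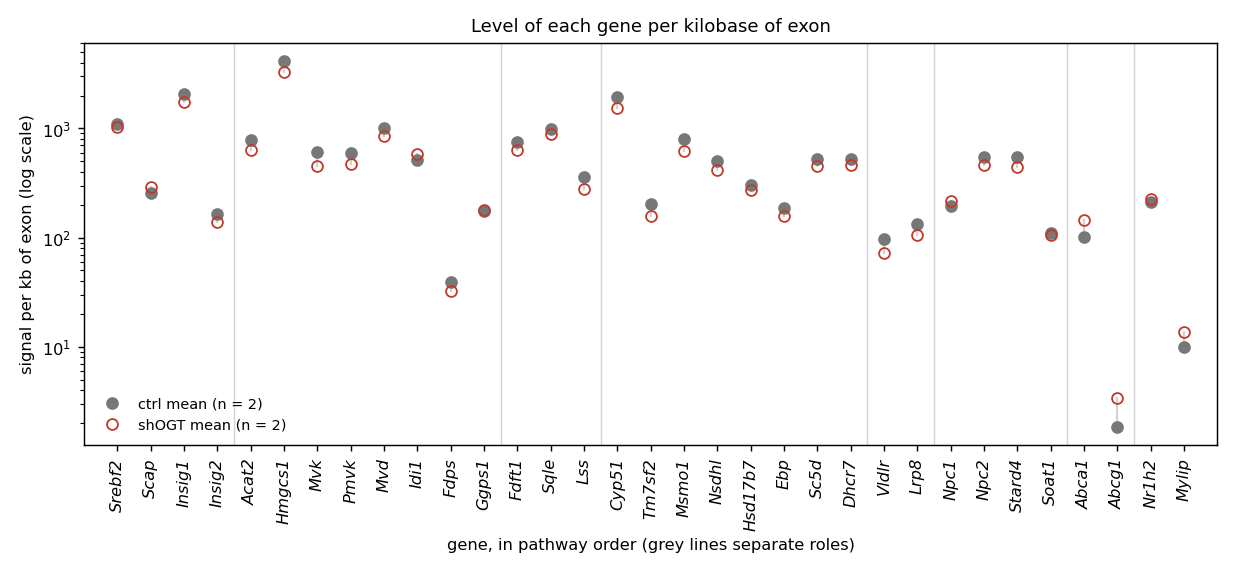
Signal per kilobase of exon (log scale) of each of the 33 genes in pathway order, as group means of 2 libraries; grey points are ctrl and open red points shOGT, joined by a line. Hmgcs1 stands highest at 4149 per kilobase in ctrl, and Abcg1 lowest at 1.84.

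Levels of different genes were compared only per kilobase of exon. By ctrl mean, Hmgcs1 (4149 per kilobase), Insig1 (2088) and Cyp51 (1942) were the most abundant of the 33, followed by Srebf2 (1097) and Mvd (1016). The other enzymes ran from Ggps1 at 174 to Sqle at 986, apart from Fdps at 39.0. The lipoprotein receptors Vldlr (97.9) and Lrp8 (134) and the exporter Abca1 (101) were lower than these, and Mylip and Abcg1 (1.84) lowest. In shOGT the order of the first 3 genes was the same, with 3301, 1738 and 1536 per kilobase.

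Both receptors for lipoproteins among the members fell. VLDLR and LRP8 bind lipoproteins that carry apolipoprotein E and, in the developing brain, are the receptors of reelin. Vldlr measured 986 and 984 in ctrl against 787 and 662 in shOGT, the most negative log2 fold change of all 33 members (-0.45 ± 0.08, adjusted p = 0.0156). The ctrl libraries were nearly equal and the shOGT libraries were not, with values of -0.32 without shOGT 2 and -0.57 without shOGT 1. Lrp8 measured 1336 and 1476 in ctrl against 1103 and 1110 in shOGT (-0.34 ± 0.06, adjusted p = 0.0138), with the closer pair in shOGT.

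The genes that move and store sterol inside the cell were split. NPC1 and NPC2 act together to pass cholesterol out of the lysosome, and their transcripts lay on opposite sides of ctrl. Npc2, the soluble carrier, measured 2913 and 3013 in ctrl against 2435 and 2580 in shOGT and fell by 15.4% (-0.24 ± 0.05, adjusted p = 0.0205). Npc1, the membrane protein, measured 2204 and 2198 in ctrl against 2503 and 2423 in shOGT; it was higher in both shOGT libraries and missed the threshold (0.16 ± 0.04, adjusted p = 0.0689; 0.0457 with libraries rescaled to equal totals). The 95% intervals, 0.06 to 0.26 for Npc1 and -0.35 to -0.14 for Npc2, do not meet.

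Stard4, a soluble sterol carrier and known SREBP target, fell: it measured 3029 and 3089 in ctrl against 2533 and 2467 in shOGT (-0.29 ± 0.04, adjusted p = 0.00635). Soat1, which esterifies cholesterol for storage, measured 1116 and 1056 in ctrl against 1089 and 986 in shOGT. Its groups overlapped, and the 95% interval of -0.21 to 0.08 holds no change as well as a fall of the size seen for Sqle.

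Of the 2 exporters, Abca1 rose and Abcg1 did not pass the test. Abca1, which loads cholesterol onto apolipoproteins, lies on chromosome 4 (53030787 to 53159895, minus strand) and measured 1056 and 1033 in ctrl against 1365 and 1619 in shOGT. Its mean rose by 42.9%, from 1044 ± 16.6 to 1492 ± 180 (SD, n = 2 each; log2 fold change 0.51 ± 0.08, adjusted p = 0.00754). The value was 0.39 without shOGT 2 and 0.63 without shOGT 1. Abcg1, a partner in export, was barely read: 14.0 and 12.9 in ctrl against 25.5 and 24.5 in shOGT. Its groups were far apart for so low a signal, but the gene did not pass (0.85 ± 0.33, 95% interval 0.11 to 1.59, adjusted p = 0.195).

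The LXR side gave no further call. Nr1h2, the gene of LXR beta, measured 689 and 736 in ctrl against 802 and 722 in shOGT, with overlap (0.10 ± 0.07, adjusted p = 0.529). Mylip, an LXR target whose ubiquitin ligase marks lipoprotein receptors for breakdown, measured 36.9 and 27.8 in ctrl against 42.5 and 45.2 in shOGT (0.44 ± 0.26, adjusted p = 0.395). Nr1h3, the gene of LXR alpha and not a member, measured 35.9 and 36.7 in ctrl against 62.7 and 56.6 in shOGT, without overlap and without passing the test (0.70 ± 0.22, adjusted p = 0.112). Nr1h3 was singled out after its values had been seen.

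**Figure D4:**
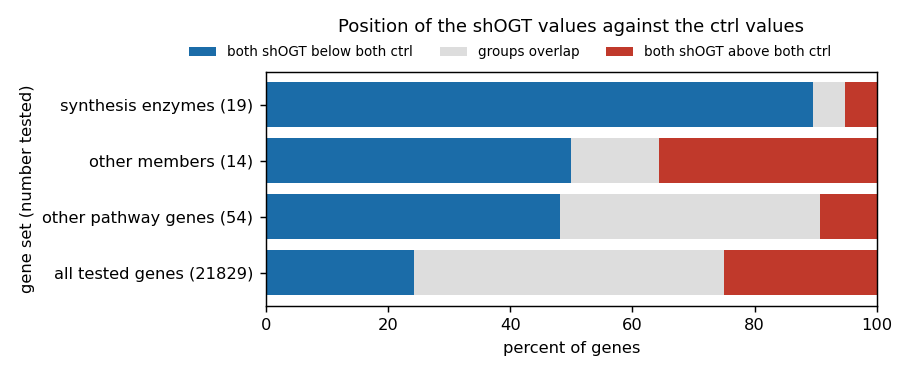
Percentage of genes for which both shOGT values lay below both ctrl values (blue), above both (red), or overlapped them (grey), for the 19 synthesis enzymes, the other 14 members, 54 further genes of the pathway and all 21829 tested genes. The blue share is widest for the synthesis enzymes (17 of 19) and narrowest for all tested genes (24.3%).

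Both shOGT values lay below both ctrl values for 24 of the 33 members, beside 24.3% of all tested genes and 32.1% of those with a mean of at least 100, and above them for 6, beside 25% of all tested genes. A further 56 genes of the pathway were followed; 54 had a row in the files, and Ch25h and Hsd3b7 were not analysed here. Of these 54, 7 fell and 0 rose, with a median of -0.08, and both shOGT values lay below both ctrl values for 26. Among all tested genes 2.9% were called lower, and among those with a mean of at least 100, 5.6%. Of the 11 genes of SREBP processing and sterol-regulated breakdown, 3 fell: Mbtps2, the protease that makes the second cut of SREBP (-0.27 ± 0.06, adjusted p = 0.0473), the ubiquitin ligase Rnf145 (-0.22 ± 0.05, adjusted p = 0.0271) and Erlin1, a scaffold of that breakdown (-0.27 ± 0.06, adjusted p = 0.0356). All 3 calls were lost without ctrl 1: the log2 fold change of Mbtps2 was then -0.30 (adjusted p = 0.0532), the log2 fold change of Rnf145 -0.21 (adjusted p = 0.0678) and the log2 fold change of Erlin1 -0.27 (adjusted p = 0.0644). Without ctrl 2, Mbtps2 (adjusted p = 0.178) and Erlin1 (adjusted p = 0.0866) lost theirs too. The call of Mbtps2 was also lost with libraries rescaled to equal totals (adjusted p = 0.0525), and 28.4% of its exon length is shared with Yy2, which has no row in the files. Erlin2, the partner of Erlin1, did not pass (-0.23 ± 0.06, adjusted p = 0.056).

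The isoprenoid branches that leave the sterol path had 1 called gene of 13. Fnta, the alpha subunit shared by the enzymes that attach farnesyl and geranylgeranyl groups to proteins, measured 1418 and 1472 in ctrl against 1027 and 1063 in shOGT (-0.47 ± 0.05, adjusted p = 0.00241). The median of this branch was -0.01, and the values of 10 of its 13 genes overlapped between the groups. Icmt, which methylates prenylated proteins, did not pass (-0.22 ± 0.06, adjusted p = 0.0768).

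Elsewhere in the list, Scarb1, a receptor for high-density lipoprotein, fell (-0.33 ± 0.06, adjusted p = 0.0138) as the called gene of 15 in sterol transport. Erg28, an endoplasmic reticulum scaffold of the late sterol enzymes, fell as well (-0.36 ± 0.06, adjusted p = 0.0156), and so did Abca2, a lipid transporter of endosomes and lysosomes (-0.28 ± 0.06, adjusted p = 0.0379). Lipa, the lysosomal lipase that frees cholesterol from its esters, did not pass (-0.28 ± 0.07, adjusted p = 0.0608), nor did Cyp39a1, an oxysterol hydroxylase (-0.43 ± 0.12, adjusted p = 0.0736).

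Other measures moved with the groups as well. Of 8 neural stem cell markers, 2 fell, among them Fabp7 (-0.49), while Sox2, Nes and Vim did not pass; their summed signal was 131248 to 134853 in ctrl and 121887 to 126983 in shOGT. Of 10 markers of the oligodendrocyte lineage, of which 9 passed the filter, 2 fell, Pdgfra (-1.13) and Gpr17 (-0.88), with sums of 58457 to 59274 and 59733 to 60708, set mainly by Olig1 and Olig2; Mog was at 0 in both shOGT libraries and at 1 read's worth in each ctrl library. Of 6 astrocyte markers 2 fell, Aldh1l1 (-0.19) and Gja1 (-0.20), with overlapping sums (25601 to 26191 and 23969 to 25938). Only 3 of the 6 log2 fold changes were negative, and they ran from -0.33 to 0.33. Both cycling markers were lower in each shOGT library and Top2a fell (-0.16). Of 8 neuronal markers Map2 rose (0.15). Their sums, 15891 to 16392 in ctrl and 17789 to 17973 in shOGT, were set mainly by Map2. Dcx was lower in both shOGT libraries without passing the test (-1.11, adjusted p = 0.0894 in limma), and 2 of the 8 log2 fold changes were negative. The 2 ependymal markers with a row summed to 586 to 637 in ctrl and 710 to 753 in shOGT. Microglial markers (4 of 6 in the files) summed to at most 10.4 in any library, and endothelial and mural markers (4 of 6) to at most 49.6. Each listed marker with a row was above 0 in at least 1 library. The part of these differences in the values of the cholesterol genes was not tested.

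The 3′ UTRs of genes called lower in these data hold GCTATC or GTACCC more often than those of other genes: 54.9% of 612, beside 28.1% of 14097 genes not called. Both letter sequences were noted in earlier results of these data, so their excess was known beforehand and is not a test. The genes compared were not matched for UTR length or signal, and the hairpin's sequence is not given in the sources used here. Of the 17 members that fell, 5 (29.4%) held either sequence, namely Msmo1, Sc5d, Lrp8, Npc2 and Stard4, and of the 16 others 4 (25%). Hmgcs1, Mvk, Cyp51 and Lss, and 8 further members that fell, held neither. Whether these sequences had a part in the changes of the members was not tested.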

How the data were processed

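Gene expression was measured by RNA sequencing in 2 ctrl and 2 shOGT libraries; groups and replicate numbers came from the sample titles. The authors deposited 1 signal value per gene and library; per the submitters' processing notes the build was mm10, with aligner, counter, annotation and the method of normalization not given in the sources used here. Every deposited signal was a whole multiple, within 0.01, of 1 step per library (0.997, 0.992, 1.06 and 0.943), which implies 15697508 to 17753976 reads per library. Replicates differed by more than sampling noise (chi-square per gene 2.02 in ctrl and 3.33 in shOGT, over genes of at least 20 implied reads). Of the identifiers, 25250 matched GENCODE M21 and 11 did not.

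Values were fitted as log2(signal + 1) with limma 3.58.1 in R 4.3.3 (empirical Bayes with a variance trend), over genes with a signal of at least 1 in at least 2 libraries; adjusted p-values are Benjamini-Hochberg over all tested genes. Fold changes on this scale understate those of low genes. With 2 libraries in each group, the smallest two-sided p of an exact permutation test is 0.333. All members are named; of the further pathway genes, those called and the 4 next by p. The values of 1 marker gene are not reported here. Members and lists were chosen with earlier results of these data known. Promoter sequences came from RefSeq (GRCm38.p6). Levels per kilobase used the merged exon length in GENCODE M21.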

Additional observations from a re-analysis of the deposited data

How the results depend on the processing

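Precision here is limited by 2 libraries per group. In each setting 17 of the 19 synthesis enzymes had negative values, but most settings could not have changed this. The filters, the fit without the trend and the replicate block leave every fold change as it was. Dropping 1 library could turn only Ggps1, the enzyme whose groups overlapped, so these fits do not test the direction. Rescaling to equal totals (median of the enzymes -0.24) and quantile normalization (-0.26) could have turned a sign and did not. The median was -0.24 when ctrl 1 was dropped and -0.28 when ctrl 2 was. It was -0.29 when shOGT 1 was dropped and -0.28 when shOGT 2 was, and a minimum of 10 left these medians the same. Among named genes only Soat1 changed sign: its log2 fold change ran from -0.14 to 0.0039 when 1 library was left out, the positive value being that without shOGT 2 (0.0039 also at a minimum of 10). With no filter, with quantile normalization, without the variance trend, without shOGT 1 and without shOGT 2, 0 genes, 0 members and 0 further pathway genes passed (limma; 4302, 3998, 2763, 3229 and 3186 genes at an unadjusted p under 0.05); prior degrees of freedom were 2.36, 2.27, 1.03, 1.87 and 1.93, beside 7.39 in the reported fit. They were infinite without ctrl 1 or ctrl 2, and 8.68 and 8.58 without them at a minimum of 10. They were also infinite without shOGT 1 or shOGT 2 at a minimum of 10, and with the replicate number as a block. Why the counts differ was not tested. The genes called lower numbered 1063 at a minimum of 5 and 1133 at a minimum of 10, and the genes called higher 756 and 822; 3 and 4 members were called higher, and 12 further pathway genes were called lower at each. With libraries rescaled to equal totals, 585 genes called lower and 593 genes called higher were found, and 3 members were higher. Leaving out 1 library gave 0 to 660 genes called lower, 0 to 573 genes called higher, 0 to 16 members lower, 0 to 2 members higher and 0 to 8 further pathway genes lower. The settings that follow were added after seeing the data. Quantile normalization with a minimum of 10 gave 858 genes called lower, 799 genes called higher and 3 members higher. With that minimum and without ctrl 1, ctrl 2, shOGT 1 and shOGT 2 in turn, there were 186, 183, 1325 and 1477 genes called lower, 107, 155, 1018 and 997 genes called higher, 8, 6, 22 and 18 members lower, 1, 1, 2 and 4 members higher, and 1, 1, 11 and 11 further pathway genes lower. The labels do not say that replicate numbers pair the samples, and the deviations of same-numbered libraries correlated at 0.03. With the replicate number as a block, there were 1007 genes called higher and 1295 genes called lower, 20 members were lower and 4 higher, and 13 further pathway genes were lower. The count models planned as alternatives were not run.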
